A study of Mus musculus with 12 samples.

Results

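The 8 genes described here encode activin subunits (Inhba, Inhbb), proteins of the follistatin family (Fst, Fstl3, Fstl1) and activin receptors (Acvr2a, Acvr2b, Acvr1b). They were taken by gene symbol from a table of 55487 mouse genes. All 8 were found and all 8 passed the filter on low counts that left 17909 genes. The set was drawn up by function but was also selected on measured values of these libraries, the lower Inhba and Fst in vehicle-treated lungs than at day 14. Differences from day 14 are therefore a description of the set. Members past the threshold of the fit across all genes are counted there beside the share of all genes, and no support is drawn from them. The difference between nanoparticle-treated and vehicle-treated lungs is given as a test.

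Activins are dimers of inhibin beta chains that belong to the transforming growth factor beta family. They bind a type II receptor (Acvr2a or Acvr2b), which recruits the type I receptor Acvr1b, and the complex phosphorylates Smad2 and Smad3. Follistatin wraps around activin and blocks its receptor sites. Activin A, the dimer of Inhba chains, is known as a product of macrophages, fibroblasts and epithelium in injured lung, and follistatin has been reported to lessen bleomycin fibrosis in rats.

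Every mouse was a male of strain C57BL/6J, wild type and 10 weeks old, given oropharyngeal bleomycin at 0.0125 U per mouse (about 0.5 U/kg), an injury that scars the lung. Nanoparticle-treated mice had retro-orbital intravenous particles of poly(lactide-co-glycolide) coated with poly(ethylene-alt-maleic anhydride), 609.22 ± 15.30 nm in diameter, at 2 mg per dose on days 14 to 18 (5 doses), and lungs were taken at day 21. Vehicle-treated mice had the carrier, phosphate-buffered saline, with lungs taken at day 21, and the day 14 mice had no treatment before their lungs were taken. Each of the 3 groups had 4 mice with 1 polyA RNA library each, made from all 5 lobes without large airways and trachea. There were no uninjured lungs among the 12 libraries, so no level can be set against a healthy lung.

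Total expected counts were 24138582 to 28910459 in nanoparticle-treated, 28001006 to 36208498 in vehicle-treated and 25706260 to 42714693 in day 14 libraries. Markers of alveolar type 2 cells, alveolar type 1 cells and airway epithelium were all detected. Nanoparticle replicate 3 stood apart. Its summed level of 4 neutrophil markers was 5464 TPM, against 375 to 408 TPM in the other nanoparticle libraries, 226 to 533 TPM in vehicle-treated lungs and 124 to 322 TPM at day 14. Its 5 alveolar macrophage markers summed to 2068 TPM, against 625 to 841 TPM in the other nanoparticle libraries, 711 to 779 TPM in vehicle-treated lungs and 812 to 1290 TPM at day 14. Day 14 replicate 2 had 830 TPM of 7 immediate early genes, which answer stimuli and handling of tissue, against 188 to 378 TPM in the other day 14 libraries. In whole lung, fewer cells of a type and less RNA per cell cannot be told apart.

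The upstream sequences of the paralogous subunit genes and of the activin-binding Fstl3 are shown because the 2 subunits share a receptor system while Inhba and Inhbb differed in how far they lay below day 14. RefSeq's table (GRCm38.p6) held start sites of 7 of the 8 genes, without Fst. Each stretch runs 5′ to 3′ on the gene's strand and ends just before the transcribed part. Capitals mark matches, on either strand, to the GC box GGGCGG, the TATA box TATAAA and the Smad box CAGAC. Inhba is shown at chr13:16011601-16011850 (plus strand), Inhbb at chr1:119422249-119422498 (minus strand) and Fstl3 at chr10:79777024-79777271 (plus strand).
Inhba: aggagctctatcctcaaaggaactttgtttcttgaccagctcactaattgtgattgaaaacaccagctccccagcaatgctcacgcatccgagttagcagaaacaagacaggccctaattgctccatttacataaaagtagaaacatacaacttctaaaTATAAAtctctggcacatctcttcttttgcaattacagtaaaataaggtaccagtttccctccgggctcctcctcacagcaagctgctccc
Inhbb: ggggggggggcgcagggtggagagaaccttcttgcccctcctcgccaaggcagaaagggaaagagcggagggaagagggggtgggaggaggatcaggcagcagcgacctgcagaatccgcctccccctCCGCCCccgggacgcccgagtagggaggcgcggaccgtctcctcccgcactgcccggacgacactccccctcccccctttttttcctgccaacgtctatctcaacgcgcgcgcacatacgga
Fstl3: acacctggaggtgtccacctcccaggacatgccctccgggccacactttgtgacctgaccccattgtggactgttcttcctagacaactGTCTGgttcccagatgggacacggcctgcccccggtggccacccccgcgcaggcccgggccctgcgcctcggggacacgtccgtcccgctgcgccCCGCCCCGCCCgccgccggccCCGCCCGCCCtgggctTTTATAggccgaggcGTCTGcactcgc
The Inhba stretch is 43.2% G and C, against 68.0% for Inhbb and 71.2% for the 250-base window of Fstl3. In that window Inhba held a TATA box on its own strand from base −91 to −86, counted back from the start, and no GC box. Fstl3 held 4 GC boxes in overlapping pairs, a TATA box on the opposite strand and 2 Smad boxes on the opposite strand. GC boxes were found in 6 of the 7 genes and in 32.7% of the 32851 upstream windows of that length, TATA boxes in 2 of 7 and in 12.4%, and Smad boxes in 3 of 7 and in 42.2%. The cyclic AMP element TGACGTCA (1.55% of windows), the AP-1 element TGANTCA (6.75%) and the Smad palindrome GTCTAGAC (0.167%) matched none of the 7. A match is a run of letters, not a bound site.

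Levels are compared between genes in TPM, an abundance scaled to transcript length and library size. Fstl1, a secreted glycoprotein of mesenchymal cells named for its follistatin-like domain, was the most abundant member in each group. It averaged 96.1 ± 6.76 TPM in nanoparticle-treated lungs, 105 ± 18.3 TPM in vehicle-treated lungs and 153 ± 9.29 TPM at day 14 (SD, n = 4 each). Inhba was the least abundant, at 1.5 ± 0.389 TPM in nanoparticle-treated lungs, 1.48 ± 0.230 TPM in vehicle-treated lungs and 3.28 ± 1.19 TPM at day 14. Between these ends the order in nanoparticle-treated lungs was Acvr1b (32.8 TPM), Fstl3 (20.7), Acvr2a (17.5), Inhbb (10.9), Acvr2b (5.36) and Fst (5.29). Vehicle-treated lungs had the same order. In these 2 groups Fstl3 and Acvr2a overlapped between libraries, and in nanoparticle-treated lungs Acvr2b and Fst did too. At day 14 Fst stood above Acvr2b, with 11.1 ± 3.33 against 4.01 ± 0.540 TPM and no overlap. The pairs Acvr1b and Fstl3, Acvr2a and Inhbb, Inhbb and Fst, and Acvr2b and Inhba overlapped at day 14.

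Inhba (ENSMUSG00000041324) is a protein-coding gene at chr13:16011851-16031621 of GRCm38 in the GENCODE M21 annotation. Values within a gene are given in CPM, counts scaled to library size with TMM factors. Inhba had 4.44, 3.20, 6.21 and 3.30 CPM in nanoparticle replicates 1 to 4, 4.34, 5.45, 3.85 and 3.92 CPM in vehicle replicates and 10.6, 9.99, 12.7 and 7.42 CPM in day 14 replicates. Every day 14 library lay above every day 21 library, and the 2 day 21 groups overlapped. The log2 difference from day 14 was −1.25 (SE 0.21) in nanoparticle-treated lungs, 0.421 of the day 14 level, and −1.22 (SE 0.21) in vehicle-treated lungs, 0.430 of it. Both comparisons share the day 14 libraries. The lowest Inhba count was 77, where counting alone gives an error of 11.4%. Genes annotated on the opposite strand within Inhba had at most 31 counts in a library, and the strand setting of the counting is not given in the sources used here.

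Inhbb (ENSMUSG00000037035, chr1:119415465-119422248, protein-coding) encodes the beta B chain of activin B. It had 31.0, 30.4, 28.4 and 28.5 CPM in nanoparticle replicates, 27.2, 30.1, 28.1 and 31.3 CPM in vehicle replicates and 32.8, 27.9, 40.5 and 30.1 CPM at day 14. The 3 groups overlapped, with day 14 replicate 3 the highest library. The log2 difference from day 14 was −0.15 (95% interval −0.35 to 0.05) in nanoparticle-treated and −0.17 (−0.37 to 0.03) in vehicle-treated lungs. Inhba made up 12.05% ± 2.95 of the summed TPM of both subunits in nanoparticle-treated lungs, 12.1% ± 2.11 in vehicle-treated lungs and 20.9% ± 3.73 at day 14. Vehicle-treated lungs (10.3 to 14.8%) did not overlap day 14 (15.9 to 24.9%), while nanoparticle-treated lungs reached 16.3%.

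**Figure D1:**
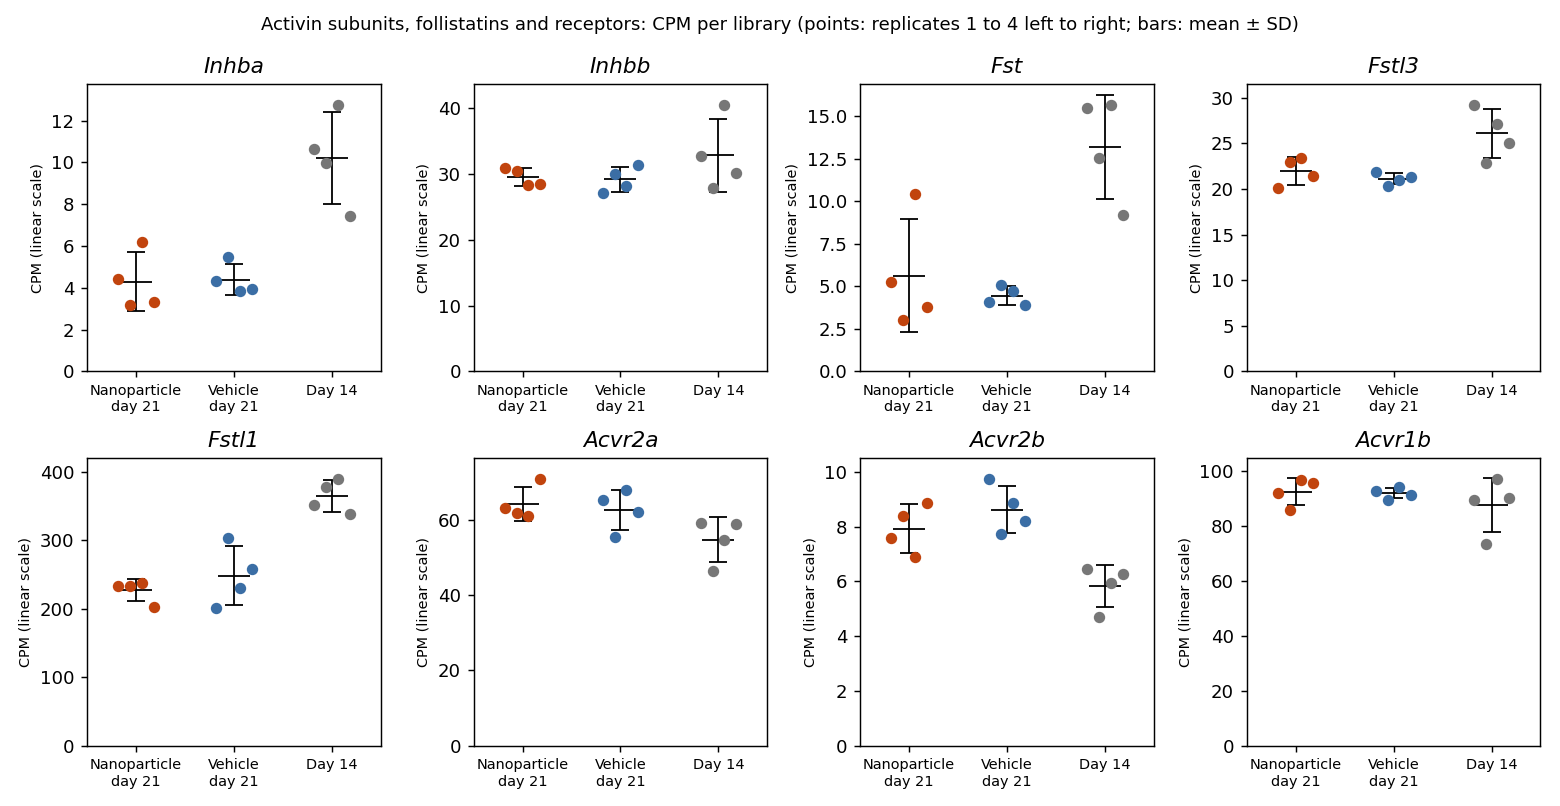
CPM of the 8 genes in each library (linear axis from 0), with nanoparticle, vehicle and day 14 groups from left to right. Points are replicates 1 to 4 and bars are mean ± SD (n = 4). Inhba and Fstl1 lie lower in all 8 day 21 libraries than in the 4 day 14 libraries, and nanoparticle replicate 3 holds the highest Fst value of day 21, 10.4 CPM.

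Fst (ENSMUSG00000021765, chr13:114452290-114458951, protein-coding) encodes follistatin, which binds activin almost irreversibly. It had 5.23, 3.03, 10.4 and 3.77 CPM in nanoparticle replicates, 4.05, 5.09, 4.70 and 3.92 CPM in vehicle replicates and 15.5, 12.5, 15.7 and 9.16 CPM in day 14 replicates. Vehicle-treated lungs lay wholly below day 14, whereas nanoparticle replicate 3 was above day 14 replicate 4. The log2 difference from day 14 was −1.24 (SE 0.32) in nanoparticle-treated and −1.57 (SE 0.32) in vehicle-treated lungs. Without nanoparticle replicate 3, the library high in neutrophil markers, the nanoparticle value was −1.70. The SD of Fst was 59.2% of its mean CPM in nanoparticle-treated lungs, 12.4% in vehicle-treated lungs and 23.2% at day 14. Its lowest count was 73, with a counting error of 11.7%.

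Fst and Inhba ranked the mice alike in nanoparticle-treated lungs and at day 14, but not in vehicle-treated lungs. In nanoparticle-treated lungs both genes ran from replicate 3 through 1 and 4 to 2, in CPM and in TPM. At day 14 both ran from replicate 3 through 1 and 2 to 4. Some neighbouring ranks were near ties. Inhba had 3.30 and 3.20 CPM in nanoparticle replicates 4 and 2, and Fst 15.7 and 15.5 CPM in day 14 replicates 3 and 1. The likeness of the orders was not tested. In vehicle-treated lungs replicate 2 was highest for both genes in CPM, but the other replicates differed in order, and in TPM replicate 1 was highest for Inhba and replicate 2 for Fst. The ratio of Fst to Inhba in TPM was 3.41 ± 0.597 in nanoparticle-treated lungs, 2.66 ± 0.555 in vehicle-treated lungs and 3.46 ± 0.670 at day 14, with all 3 ranges overlapping. The mean ratio of vehicle-treated lungs was the lowest of the groups, and its difference from the other means was not tested.

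**Figure D2:**
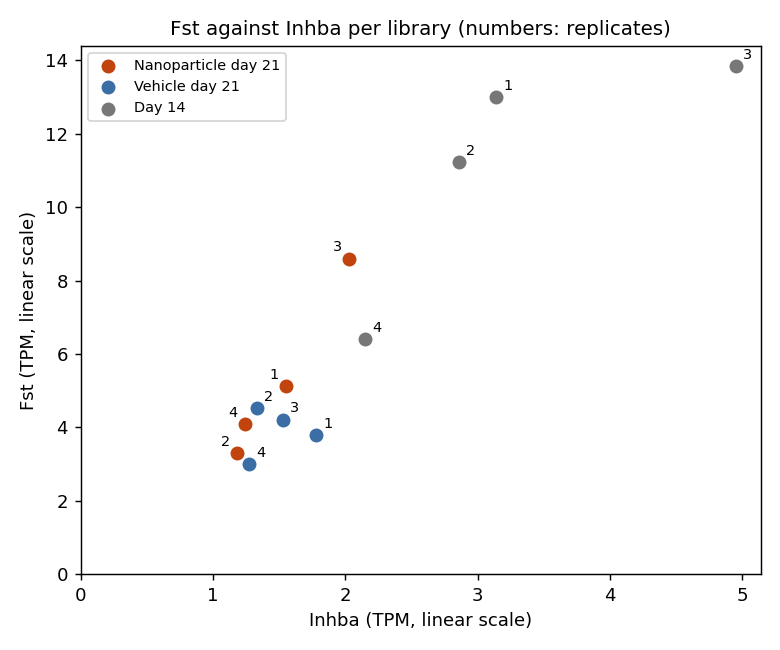
Fst against Inhba in TPM per library (linear axes from 0), coloured by group and numbered by replicate. Day 14 replicates 1 to 3 lie at the upper right, day 21 libraries lie at the lower left, and nanoparticle replicate 3 (2.03 and 8.60 TPM) lies beside day 14 replicate 4 (2.15 and 6.40 TPM).

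Fstl3 (ENSMUSG00000020325, chr10:79777272-79782630, protein-coding) encodes a second soluble inhibitor of activin and myostatin. It had 20.1, 23.0, 23.4 and 21.5 CPM in nanoparticle replicates, 21.8, 20.3, 21.0 and 21.3 CPM in vehicle replicates and 29.2, 22.9, 27.2 and 25.1 CPM at day 14. In CPM vehicle-treated lungs lay below day 14 without overlap, and nanoparticle-treated lungs overlapped day 14 through day 14 replicate 2. In TPM vehicle replicates 1 and 2 (21.06 and 20.61 TPM) lay above day 14 replicate 2 (20.49 TPM). The log2 difference was −0.25 (SE 0.08) in nanoparticle-treated and −0.31 (SE 0.08) in vehicle-treated lungs, much smaller than that of Fst. Fst and Fstl3 together reached 2.10 ± 0.258 times the summed TPM of both activin subunits in nanoparticle-treated lungs, 1.96 ± 0.125 times in vehicle-treated lungs and 2.33 ± 0.284 times at day 14.

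Fstl1 (ENSMUSG00000022816, chr16:37776873-37836514, protein-coding) is known more for binding bone morphogenetic proteins than activin. It had 233, 234, 238 and 203 CPM in nanoparticle replicates, 202, 304, 230 and 259 CPM in vehicle replicates and 352, 378, 389 and 338 CPM at day 14. Both day 21 groups lay wholly below day 14. The log2 difference was −0.68 (SE 0.11) in nanoparticle-treated lungs, 0.623 of the day 14 level, and −0.55 (SE 0.10) in vehicle-treated lungs, 0.682 of it. Scar fibroblast markers moved the same way. In the list of 5, 4 fell in nanoparticle-treated and 3 in vehicle-treated lungs relative to day 14 (edgeR, adjusted p under 0.05), and their summed level was 656 to 898 TPM in nanoparticle-treated, 795 to 1051 TPM in vehicle-treated and 1098 to 1460 TPM in day 14 lungs. Transitional epithelium markers fell in 4 of 4 in both day 21 groups, with sums of 360 to 472 TPM in nanoparticle-treated, 384 to 460 TPM in vehicle-treated and 542 to 639 TPM in day 14 lungs. Markers of dividing cells fell in 4 of 4 in both groups, with sums of 16.4 to 40.7 TPM in nanoparticle-treated, 22.9 to 50.6 TPM in vehicle-treated and 80.6 to 94.4 TPM in day 14 lungs. Interstitial macrophage markers fell in 2 of 5 in nanoparticle-treated and 4 of 5 in vehicle-treated lungs, with sums of 338 to 663.5 TPM in nanoparticle-treated, 356 to 488 TPM in vehicle-treated and 661 to 826 TPM in day 14 lungs. Not every mesenchymal list moved down. Alveolar fibroblast markers summed to 2425 to 2844 TPM in nanoparticle-treated, 1977 to 2975 in vehicle-treated and 1563 to 1930 in day 14 lungs. Smooth muscle markers summed to 132 to 139, 137 to 160 and 117 to 195 TPM in that order. The lists were chosen with earlier results known. Of all genes, 8.56% were called lower in nanoparticle-treated and 6.51% in vehicle-treated lungs. No marker of these lists was at 0, and their part in the lower Inhba, Fst and Fstl1 was not tested.

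Receptor genes showed no such fall. Acvr2b (ENSMUSG00000061393, chr9:119402118-119434995, protein-coding), a type II receptor of high activin affinity, had 7.57, 8.39, 6.88 and 8.88 CPM in nanoparticle replicates, 9.73, 7.71, 8.85 and 8.21 CPM in vehicle replicates and 6.44, 4.71, 5.92 and 6.26 CPM at day 14. Every day 21 library was above every day 14 library in CPM. The log2 difference was 0.44 (SE 0.12) in nanoparticle-treated and 0.56 (SE 0.12) in vehicle-treated lungs. In TPM the separation was less complete, since nanoparticle replicate 3 had 3.87 TPM and the day 14 libraries 3.35 to 4.60 TPM.

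Acvr2a (ENSMUSG00000052155, chr2:48814109-48903269, protein-coding), the more abundant type II receptor, had 63.2, 61.9, 61.0 and 70.8 CPM in nanoparticle replicates, 65.4, 55.5, 67.9 and 62.0 CPM in vehicle replicates and 59.2, 46.3, 54.8 and 58.8 CPM at day 14. In CPM nanoparticle-treated lungs lay above day 14 and vehicle-treated lungs overlapped it. In TPM nanoparticle replicates 2 and 3 (16.78 and 16.55 TPM) lay below day 14 replicate 4 (16.83 TPM). The log2 difference from day 14 was 0.23 (95% interval 0.05 to 0.41) in nanoparticle-treated and 0.19 (0.01 to 0.37) in vehicle-treated lungs. Neither passed an adjusted p of 0.05 in the fit across all genes. Acvr2a overlaps Orc4 on the opposite strand, a gene with up to 1564 counts in a library, so reads of the shared part may be counted to either. Acvr2b supplied 23.3% ± 2.99 of the TPM of both type II receptors in nanoparticle-treated lungs, 25.2% ± 2.20 in vehicle-treated lungs and 21.0% ± 2.705 at day 14.

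Acvr1b (ENSMUSG00000000532, chr15:101174067-101213684, protein-coding), the type I receptor that phosphorylates Smad2 and Smad3, was the steadiest member. It had 91.9, 85.7, 96.5 and 95.5 CPM in nanoparticle replicates, 92.7, 89.4, 94.0 and 91.3 CPM in vehicle replicates and 89.3, 73.5, 96.8 and 90.2 CPM at day 14. All groups overlapped, and day 14 replicate 2 was the lowest library. The log2 difference from day 14 was 0.08 (95% interval −0.08 to 0.24) in nanoparticle-treated and 0.07 (−0.09 to 0.23) in vehicle-treated lungs.

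Against day 14, the fit across all genes placed 4 of the 8 genes lower (Inhba, Fst, Fstl1, Fstl3) and 1 higher (Acvr2b) at an adjusted p under 0.05, in nanoparticle-treated lungs and in vehicle-treated lungs. Of all genes tested, 14.7% were called in nanoparticle-treated lungs (8.56% lower, 6.16% higher) and 10.3% in vehicle-treated lungs (6.51% lower, 3.79% higher). CPM ranges did not overlap day 14 for 4 members in nanoparticle-treated lungs, Inhba and Fstl1 lower and both type II receptors higher. The same held for 19.0% of all genes (10.6% lower, 8.47% higher). In vehicle-treated lungs Inhba, Fst, Fstl1 and Fstl3 lay wholly lower and Acvr2b wholly higher, as did 17.9% of all genes (10.7% lower, 7.20% higher). Nothing is read from these counts, since the set was drawn up with this comparison known. The median log2 difference of the 8 genes was −0.20 in nanoparticle-treated and −0.24 in vehicle-treated lungs, where the median over all genes was 0.01 and 0.00. The nanoparticle count was 2 to 3 when day 14 replicate 1 or 3, or nanoparticle replicate 1, 2 or 4, was dropped. Over all genes the same drops gave 1363 to 1802 calls, against 2636 with all libraries. Over the 19 alternatives the nanoparticle calls of Inhba and Fstl1 held in all 19. Those of Fst and Acvr2b held in 12 each and that of Fstl3 in 4. In vehicle-treated lungs the calls of Inhba, Fst and Fstl1 held in all 19, that of Acvr2b in 17 and that of Fstl3 in 12.

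Nanoparticle-treated and vehicle-treated lungs were compared at day 21 to ask whether 5 doses of particles altered these genes. None of the 8 differed in edgeR's quasi-likelihood test (adjusted p = 0.999 for each, the lowest unadjusted p being 0.230). At an unadjusted p under 0.05 the count was 0 of 8, and DESeq2 also called 0. Over all genes edgeR called 0 (0% of genes tested, 762 at an unadjusted p under 0.05) and DESeq2 called 19. The CPM ranges of the 2 groups overlapped for all 8 members, while they did not overlap for 3.55% of all genes (1.75% lower, 1.80% higher).

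The intervals show what size of difference these 4 mice a group leave possible. Acvr1b was 1.01-fold (95% interval 0.902 to 1.12), Acvr2a 1.02-fold (0.904 to 1.16), Inhbb 1.01-fold (0.879 to 1.17) and Fstl3 1.04-fold (0.927 to 1.17) in nanoparticle-treated relative to vehicle-treated lungs. Acvr2b was 0.920-fold (0.770 to 1.10) and Fstl1 0.913-fold (0.781 to 1.07). The widest of the 8 intervals were those of Inhba and Fst, with Inhba at 0.977-fold (0.707 to 1.35) and Fst at 1.26-fold (0.769 to 2.06). For Fst a doubling is inside the interval. Nanoparticle replicate 3 set the direction for Fst, whose log2 difference from vehicle was 0.33 with all libraries and −0.14 without that mouse. For Inhba the same step moved the log2 difference from −0.03 to −0.26, and it was 0.08 without nanoparticle replicate 2 or 4 and 0.09 without vehicle replicate 2.

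**Figure D3:**
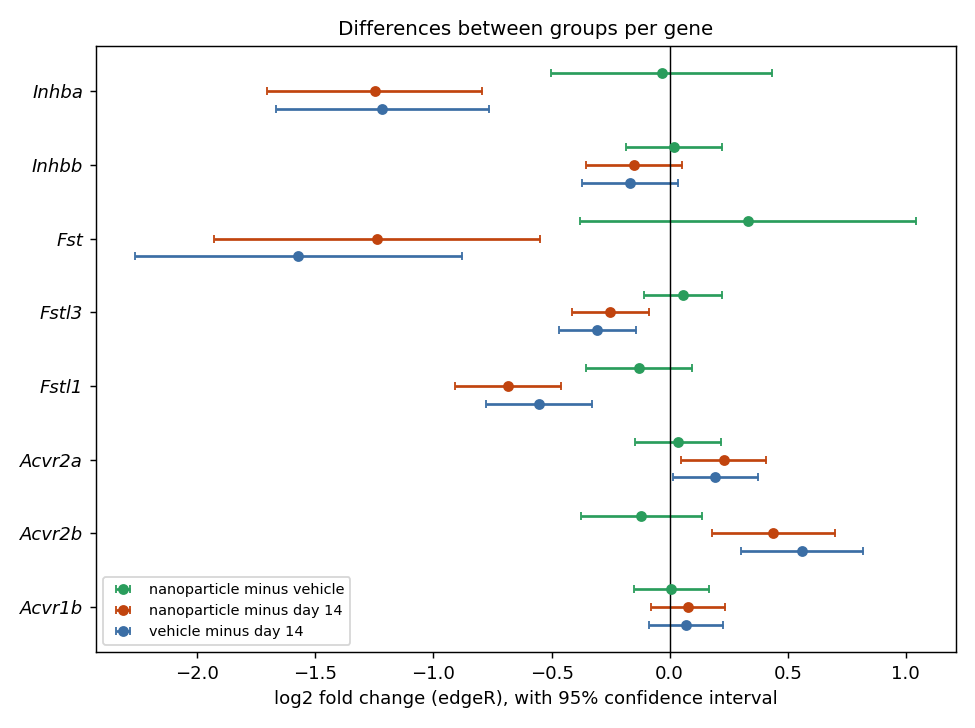
Log2 fold changes of the 8 genes from edgeR with 95% confidence intervals, for nanoparticle against vehicle, nanoparticle against day 14 and vehicle against day 14. The nanoparticle against vehicle intervals all include 0, and the widest is that of Fst, −0.38 to 1.05.

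Other genes of activin signalling were read from a list of 43, chosen with earlier results of these libraries known, of which 35 passed the count filter. Between nanoparticle-treated and vehicle-treated lungs 0 of 35 differed in edgeR (lowest unadjusted p 0.122), 0 at an unadjusted p under 0.05 and 0 in DESeq2. Relative to day 14, 3 fell and 2 rose in each day 21 group, with a median log2 difference of 0.08 in nanoparticle-treated and 0.03 in vehicle-treated lungs. These counts are near the shares over all genes given above.

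Smad-induced feedback genes dampen or tune the signal that induces them. Of the 6 listed, 1 was called lower than at day 14 in each day 21 group and is not reported here by name. Smad7, Skil, Pmepa1, Ldlrad4 and Tgif1 did not pass, with log2 values of −0.37 to 0.16 in nanoparticle-treated and −0.36 to 0.21 in vehicle-treated lungs. Among these named genes the lowest value in each day 21 group was that of Pmepa1. It had 21.6 to 40.4 TPM in nanoparticle-treated, 31.1 to 41.6 TPM in vehicle-treated and 41.2 to 47.0 TPM in day 14 lungs. Pmepa1 passed in 3 of 19 alternatives in nanoparticle-treated and 1 of 19 in vehicle-treated lungs.

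Proprotein convertases cut the precursors of this family. Pcsk6 fell in both groups, to 6.83 ± 0.514 TPM in nanoparticle-treated and 6.97 ± 0.545 TPM in vehicle-treated lungs, against 8.66 ± 0.661 TPM at day 14 (edgeR adjusted p = 0.0143 for nanoparticle-treated and 0.0311 for vehicle-treated lungs). Furin fell in vehicle-treated lungs by 0.27 on the log2 scale (edgeR adjusted p = 0.0479), and its value in nanoparticle-treated lungs was −0.22 (adjusted p = 0.0772). The vehicle call of Furin held in 7 of 19 alternatives. The other listed convertases did not pass, Pcsk5 at 0.08 in nanoparticle-treated and 0.03 in vehicle-treated lungs and Pcsk7 at −0.11 and −0.10. Gdf11, a ligand of the same receptors, fell in nanoparticle-treated lungs by 0.52 (edgeR adjusted p = 0.0390), and its value in vehicle-treated lungs was −0.39 (adjusted p = 0.116). The nanoparticle call of Gdf11 held in 7 of 19 alternatives. Neither gene passed between nanoparticle-treated and vehicle-treated lungs, where the 95% interval of the log2 difference was −0.13 to 0.22 for Furin and −0.46 to 0.21 for Gdf11.

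Tgfbr3, betaglycan, a co-receptor through which inhibin opposes activin, rose to 22.2 ± 2.51 TPM in nanoparticle-treated and 22.6 ± 2.03 TPM in vehicle-treated lungs, against 17.4 ± 2.08 TPM at day 14 (edgeR adjusted p = 0.0276 for nanoparticle-treated and 0.0275 for vehicle-treated lungs). Magi2, a scaffold that binds activin type II receptors, rose by 0.38 in nanoparticle-treated (edgeR adjusted p = 0.0319) and by 0.40 in vehicle-treated lungs on the log2 scale (adjusted p = 0.0307). Over the 19 alternatives the nanoparticle and vehicle calls held in 12 and 14 for Tgfbr3 and in 9 and 10 for Magi2. Inha, the inhibin alpha chain, had 2.25 ± 0.601 TPM in nanoparticle-treated, 2.32 ± 0.887 TPM in vehicle-treated and 1.94 ± 0.619 TPM in day 14 lungs and did not pass. The type I receptors Acvr1 (log2 difference from day 14 −0.07 in nanoparticle-treated and −0.11 in vehicle-treated lungs) and Acvr1c (0.50 in nanoparticle-treated and 0.97 in vehicle-treated lungs) did not pass either, Acvr1c at no more than 0.18 TPM in any library. The signal transducers Smad2, Smad3 and Smad4 did not pass, with log2 differences of 0.05, 0.25 and 0.09 in nanoparticle-treated and 0.04, 0.17 and 0.10 in vehicle-treated lungs.

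The number of genes of the list called changed when single libraries were dropped. In vehicle-treated lungs only 1 gene stayed called when day 14 replicate 3, vehicle replicate 1 or vehicle replicate 3 was dropped, and 2 and 3 genes were called without day 14 replicate 1 and without vehicle replicate 2. In nanoparticle-treated lungs 1 gene was called without day 14 replicate 3, 2 without nanoparticle replicate 2 or 4, and 3 without day 14 replicate 2. Without nanoparticle replicate 3 the count was 6, with Furin called (edgeR adjusted p = 0.0168, with 0.0168 to 0.204 over the 19 alternatives) and Gdf11 not. Over all genes the vehicle calls went from 1845 to 719 without day 14 replicate 3. They were 744 without vehicle replicate 1 and 866 without vehicle replicate 3. The nanoparticle calls over all genes went from 2636 to 1363 without day 14 replicate 3. They were 1625 and 1384 without nanoparticle replicates 2 and 4, 2700 without day 14 replicate 2 and 2934 without nanoparticle replicate 3.

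**Figure D4:**
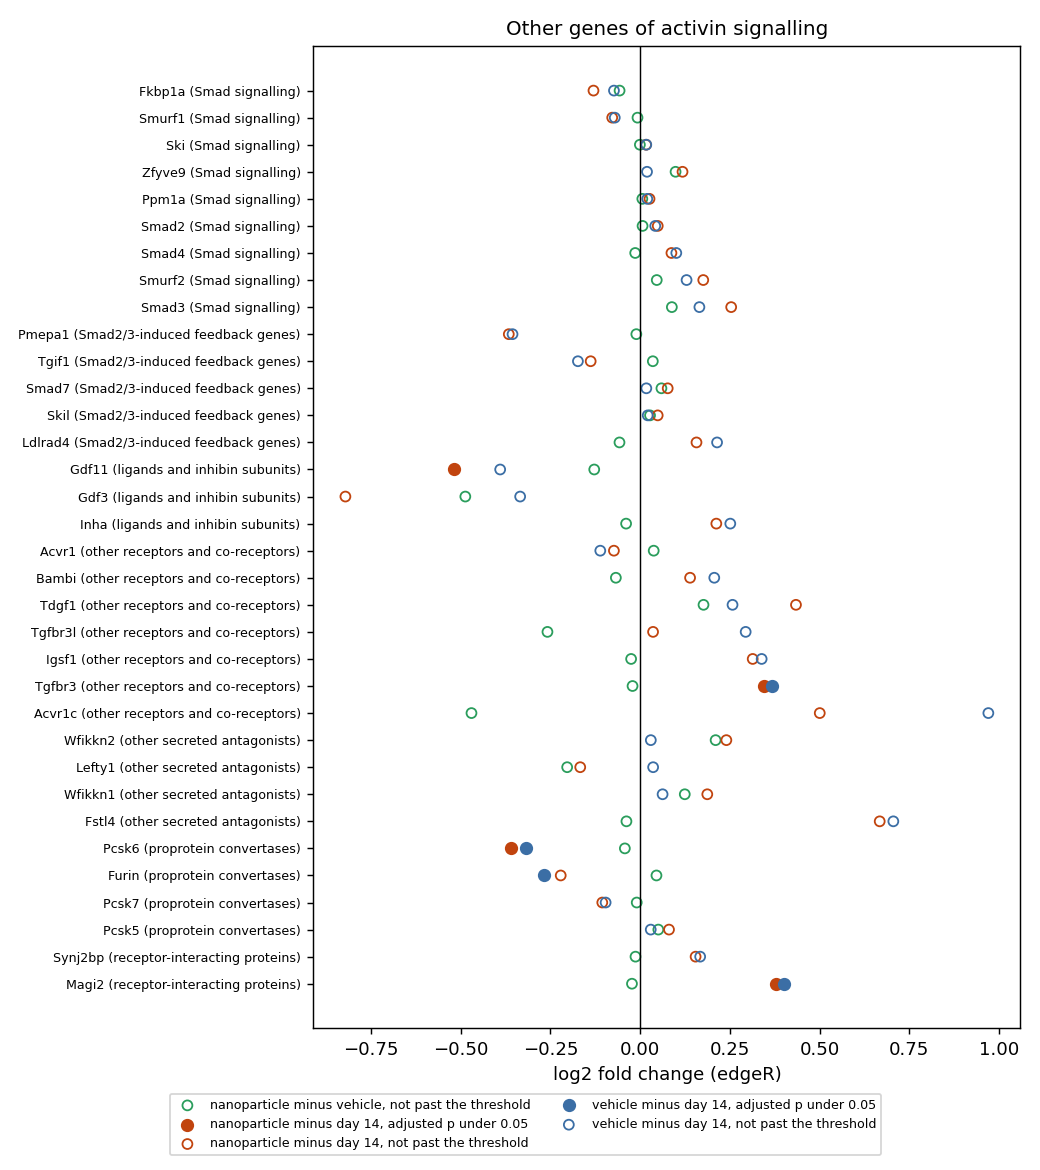
Log2 fold changes (edgeR) of other genes of activin signalling that passed the count filter, by role, in the 3 comparisons. Filled points passed an adjusted p of 0.05. Acvr1c lies farthest to the right, at 0.97 for vehicle against day 14 and past no threshold, and open points of nanoparticle against vehicle lie near 0 for most genes.

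The genes whose profile lay nearest to Inhba and Fst were sought among 13186 genes, as the root mean square difference between log2 CPM profiles, each first set to a mean of 0 over the 12 libraries. Nearest to Inhba were Syt12 (0.156), Sfn (0.190), Ch25h (0.201), Mt2 (0.221) and Serpina3n (0.226). Sfn is an epithelial cell cycle regulator of the transitional epithelium list, Ch25h an oxysterol-producing enzyme, Mt2 a metallothionein and Serpina3n an acute phase protease inhibitor. Nearest to Fst were Ch25h (0.207), Ankrd37 (0.244), Inhba itself (0.247), Clca3a1 (0.269) and Syt12 (0.304), where Ankrd37 is known as a hypoxia-induced gene. From Inhba, Fst ranked 9. The lists are a description of likeness over 12 libraries in 3 groups, and in TPM 3 of the 5 genes were shared for each.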

How the data were processed

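Whole-lung libraries were sequenced as paired reads of 151 bases. Per the submitters' processing notes, STAR 2.7.8a, RSEM 1.3.3, cutadapt 4.8, MultiQC 1.20 and FastQC 0.11.8 were used with the build GRCm38. For the annotation release and strand setting, nothing is given in the sources used here. The values the authors deposited are expected counts per gene, as whole numbers, and TPM. FPKM values were not used. The 12 columns were matched to mice by library name, with 0 sample columns unused, and 4 reporter rows were left out.

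Counts were filtered with filterByExpr (minimum 10, total 15), scaled by TMM and fitted for all 12 libraries with edgeR 4.0.16 in R 4.3.3 (robust quasi-likelihood, one group term), with two-sided contrasts and Benjamini-Hochberg adjustment over 17909 genes. The common biological coefficient of variation was 0.119. A count of 3 is 0.0719 to 0.125 CPM, a floor for counting error only. Alternatives used DESeq2 1.42.0, limma 3.58.1, RLE scaling, no filter, 2 groups, the replicate block and each library left out. Libraries of a group differed by 7.95 to 33.1 chi-square per degree of freedom, so none was a copy. The labels name separate mice.

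The members and lists were chosen with earlier results of these data known. Besides the 8 members, the text names 7 fixed genes (Inha, Acvr1, Acvr1c, Smad2, Smad3, Smad4, Smad7), genes of the list past the threshold in any comparison, and the 5 nearest profiles to Inhba and to Fst. Other genes named were chosen after their values were seen. Marker lists were of 16 kinds, and those not printed in the report are in the closing section. Of the list, 1 gene enters the counts but is not reported here by name.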

Additional observations from a re-analysis of the deposited data

Results flagged for a closer look

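Fstl1 in nanoparticle replicate 4 was 203 CPM, far from the 233 to 238 CPM of the other libraries of its group. The gap to the nearest library was 0.870 of the group's range, above Dixon's critical value for 4 samples. Of 24 groups examined (8 genes in 3 groups) 1 stood out, and chance flags about 1 in 20.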

How the results depend on the processing

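No member was called between nanoparticle-treated and vehicle-treated lungs under any alternative, nor was any other gene of the list. Counts of members against day 14 describe the settings only, since the set was selected on that comparison. Members called in vehicle-treated lungs (5) numbered 3 with limma-trend on log2(TPM + 0.1) or log2(TPM + 1), and 4 to 5 with a library left out. In nanoparticle-treated lungs (5) they numbered 3 without the low count filter and 3 with either limma-trend fit, 2 with 2 groups in the fit, and 2 to 5 with a library left out. Genes of the list called in vehicle-treated lungs (5) numbered 3 without the filter, 1 with either limma-trend fit and 1 to 5 with a library left out. In nanoparticle-treated lungs (5) they numbered 2 with 2 groups in the fit, 3 with either limma-trend fit and 1 to 6 with a library left out. Over all genes, calls in nanoparticle-treated lungs (2636 of 17909) numbered 1980 of 33755 without the filter and 1672 of 17461 with 2 groups. They numbered 1577 and 1607 with the limma-trend fits and 1363 to 2934 with a library left out. In vehicle-treated lungs (1845 of 17909) calls over all genes numbered 1455 of 33755 without the filter. They numbered 995 and 1051 with the limma-trend fits and 719 to 2162 with a library left out. The cause was not tested. Replicate numbers did not pair the mice: correlations of deviations for same-numbered libraries were −0.0744 to 0.148, with 2 of 12 over 0.1, and in 3 of 12 pairs the library correlated best with its own number. With the replicate block, members called stayed at 5 in both groups, with Acvr2a in place of Fstl3 in nanoparticle-treated lungs, and genes of the list numbered 5 in vehicle-treated and 3 in nanoparticle-treated lungs. Counting error at the lowest count of a gene was 8.94 to 11.7% for Acvr2b, Inhba and Fst.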

Other observations

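Of the alveolar fibroblast genes, 2 of 5 were called higher than at day 14 in each day 21 group (edgeR, adjusted p under 0.05). In each day 21 group 1 of 4 alveolar type 2 genes, 1 of 4 airway genes and 1 of 5 alveolar macrophage genes were called higher. The alveolar macrophage list as a whole did not rise in vehicle-treated lungs. Its sum was 711 to 779 TPM there, 812 to 1290 TPM at day 14 and 625 to 2068 TPM in nanoparticle-treated lungs. Of the smooth muscle genes, 1 of 4 was called lower in nanoparticle-treated and 0 of 4 in vehicle-treated lungs. For immediate early genes this was 0 of 7 and 1 of 7. Of all genes, 6.16% were called higher and 8.56% lower in nanoparticle-treated lungs. In vehicle-treated lungs the shares were 3.79% and 6.51%. A single call in so short a list gives no direction for the list. Alveolar type 1, endothelial, mesothelial, neutrophil, mast cell and lymphocyte lists had 0 members called against day 14. No list had a member called between nanoparticle-treated and vehicle-treated lungs.

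Of the 8 listed genes of activin signalling that failed the count filter, Nodal, an activin-like ligand of the embryo, reached 0.27 TPM in nanoparticle-treated, 0.21 TPM in vehicle-treated and 0.21 TPM in day 14 lungs. Cer1, an antagonist of Nodal, is listed at 0 in all 12 libraries. The inhibin beta chains Inhbc and Inhbe, known from liver, reached no more than 0.07 and 0.02 TPM.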
